A study of Mus musculus with 8 samples.

Results

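Ccl3, Ccl4, Ccl5 and Ccl9 are CC chemokine genes that lie within 138.9 kb of each other on mouse chromosome 11. They are 4 of the 19191 rows of the gene count table, found by symbol, and each symbol had 1 row. The 4 were chosen by their difference between KO and WT in these same libraries. Their KO against WT values below are therefore a description without a test, and support nothing beyond themselves.

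The libraries came from regulatory T (Treg) cells, sorted by flow cytometry from large intestinal lamina propria of C57BL/6 mice. Both genotypes carried Foxp3Yfp-Cre, a Cre recombinase fused to a yellow fluorescent protein and made from the Foxp3 locus, which deletes a floxed Ahr allele in Foxp3-expressing cells. WT stands for Ahrf/+ Foxp3Yfp-Cre, which leaves an intact Ahr allele in Treg cells, and KO for Ahrf/- Foxp3Yfp-Cre, whose second allele is null in every cell of the mouse. Ahr encodes the aryl hydrocarbon receptor, a ligand-activated transcription factor. Each genotype had 2 RNA-seq libraries. Age, sex and the number of animals per library were not stated in the labels, so p-values measure the spread between these libraries, which may be technical. An effect of Ahr loss in Treg cells and an effect of the null allele in other cells cannot be told apart.

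Library totals ran from 26862922 to 62402450 counts, and 3 counts, the limit that a count of 0 allows, stood between 0.0481 and 0.112 CPM (counts scaled to 1000000 per library). The Treg markers Foxp3, Cd4 and Cd3e were present in all 4 libraries, with Foxp3 from 250 to 280 CPM. Counts over the whole Ahr gene were 581 and 539 CPM in WT against 536 and 518 in KO. A count over a whole gene does not see a partial deletion, so Ahr checked neither the labels nor the deletion. Ahrr, the Ahr repressor gene and a known Ahr target, was read at 7.30 and 6.55 CPM in WT against 0.391 and 0.265 in KO (DESeq2 adjusted p = 3.11e-18, edgeR adjusted p = 0.218). Libraries numbered 1 and 2 differed in both genotypes. The 12 macrophage markers summed to 167 and 121 CPM in the WT and KO libraries numbered 1 and to 70.9 and 49.9 CPM in those numbered 2.

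CC chemokines are small secreted proteins with a pair of adjacent cysteines, and they direct the movement of cells that carry matching G protein-coupled receptors. Ccl3, Ccl5 and Ccl9 bind Ccr1, and Ccl5 also binds Ccr3. Activated T cells secrete Ccl3 and Ccl4 soon after antigen receptor stimulation and Ccl5 later, while Ccl9 and its relative Ccl6 are best known from myeloid cells. In the gut, Ccl9 is known for drawing dendritic cells to Peyer's patches.

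In mm9 coordinates the block runs from Ccl5 (chr11:83339280-83344020, minus strand) through Ccl9 (chr11:83386421-83392138, minus strand), Ccl6 (chr11:83401384-83406589, minus strand) and Ccl3 (chr11:83461346-83462857, minus strand) to Ccl4 (chr11:83476086-83478185, plus strand). Ccl6 is the other gene annotated inside the block and was not among those chosen. Ccl3 and Ccl4 point away from each other across a gap of 13.23 kb, and no 2 of the 5 gene models overlap in the table. Promoter windows were at hand from RefSeq (GRCm38.p6) for 2 of the 4 genes, Ccl3 and Ccl9. They are shown with that of Ccl6, whose level did not follow Ccl9. Each window runs 5′ to 3′ from 250 bases before to 50 after the gene's start, all on the minus strand: chr11:83649329-83649628 for Ccl3, chr11:83578587-83578886 for Ccl9 and chr11:83593038-83593337 for Ccl6. Capitals mark matches to AP-1, kappaB and T-box letters on either strand.
Ccl3: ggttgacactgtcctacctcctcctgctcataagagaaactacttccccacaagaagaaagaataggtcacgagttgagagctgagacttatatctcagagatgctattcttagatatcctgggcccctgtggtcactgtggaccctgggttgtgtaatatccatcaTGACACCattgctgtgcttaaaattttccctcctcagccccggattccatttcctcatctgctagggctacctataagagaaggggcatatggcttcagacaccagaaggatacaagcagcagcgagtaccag
Ccl9: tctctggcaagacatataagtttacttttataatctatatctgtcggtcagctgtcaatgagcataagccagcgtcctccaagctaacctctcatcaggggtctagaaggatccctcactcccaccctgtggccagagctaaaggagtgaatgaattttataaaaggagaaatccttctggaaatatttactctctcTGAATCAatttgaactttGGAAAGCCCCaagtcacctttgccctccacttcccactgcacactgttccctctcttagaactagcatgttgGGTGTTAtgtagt
Ccl6: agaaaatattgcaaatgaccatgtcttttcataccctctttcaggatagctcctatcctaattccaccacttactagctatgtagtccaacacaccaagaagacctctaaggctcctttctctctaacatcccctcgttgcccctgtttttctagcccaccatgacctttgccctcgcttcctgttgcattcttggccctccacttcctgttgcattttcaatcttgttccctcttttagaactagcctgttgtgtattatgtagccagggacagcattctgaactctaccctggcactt
The searched letters were TGANTCA for AP-1, GGG and CC with 5 bases of any kind between them for kappaB, GGTGTNA for T-box factors such as T-bet, GCGTG for the Ahr core site, TGTGGT for Runx factors, GGAAA for NFAT and TATAAA for the TATA box. These motifs can overlap, as the kappaB and NFAT letters do in Ccl9.

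Ccl9 held 1 AP-1, 1 kappaB and 1 T-box match, 2 NFAT matches and 3 TATA matches, and Ccl3 held 1 T-box, 1 Runx and 2 NFAT matches. The TATA matches in Ccl9 lay at -224, -94 and -92 from its start, the last 2 overlapping on opposite strands. Ccl6 held none of the 7. Of 32851 RefSeq promoter windows of this length, 7.81% held the AP-1 letters, 50.8% the kappaB letters, 10.2% the T-box letters, 16.8% the Runx letters, 61.3% the NFAT letters and 13.6% the TATA letters. The Ahr core letters stood in 32.4% of windows and in none of these 3. A letter match is not a bound site, and its absence from a window says nothing of the factor. The longest run that Ccl9 and Ccl6 shared was gccctccacttcc, of 13 bases, where Ccl3 shared at most 8 with either.

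All 4 chosen chemokine transcripts were more abundant in KO than in WT. With all libraries used, the ratio was about the same for Ccl3 and Ccl4 and wider for Ccl5 and Ccl9. The summed level of the 4 was 25.7 and 23.2 CPM in WT against 55.3 and 53.8 in KO, a KO over WT ratio of 2.23. In bulk samples, more cells that make a transcript and more of it per cell cannot be told apart. Levels here are CPM without a correction for transcript length, so they are compared between libraries and not between genes. Fold changes are on the log2 scale, KO over WT, with standard errors from the fit over all 14274 genes tested.

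Ccl4 had the smallest spread among libraries of a genotype. It stood at 9.64 CPM in WT replicate 1 and 11.1 CPM in WT replicate 2, and at 20.8 and 22.1 CPM in KO replicates 1 and 2. The lowest KO library was 1.87 times the highest WT library. The means were 10.4 ± 1.02 CPM for WT and 21.4 ± 0.946 CPM in KO (SD, n = 2), and the log2 fold change was 1.04 ± 0.13.

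Ccl3, the partner of Ccl4 at the right end of the block, varied far more among libraries of a genotype. WT replicate 1 held 11.2 CPM and WT replicate 2 held 6.27 CPM, where KO replicates 1 and 2 held 21.2 and 12.1 CPM. The groups did not overlap, but KO replicate 2 was only 1.08 times WT replicate 1. The log2 fold change was 0.94 ± 0.37, and it moved to 0.47 when KO replicate 1 was left out, to 0.56 with WT replicate 2 left out, to 1.30 with KO replicate 2 left out and to 1.40 with WT replicate 1 left out. In both genotypes the library numbered 1 was the higher one for Ccl3. The macrophage marker sum given above was also higher in the libraries numbered 1, but lower in KO than in WT, and its part in the Ccl3 levels was not tested.

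With all libraries used, Ccl5 differed by more than Ccl3 and Ccl4. Its level was 4.51 and 5.59 CPM in WT replicates 1 and 2 and 11.3 and 17.9 CPM in KO replicates 1 and 2. Both KO libraries were above both WT libraries, by at least 2.02 times. The means were 5.05 ± 0.767 CPM for WT and 14.6 ± 4.70 CPM in KO (SD, n = 2), and the log2 fold change was 1.53 ± 0.26. That value ran from 1.15 without KO replicate 2 to 1.81 without KO replicate 1. Its order against Ccl3 depended on single libraries. Ccl3 had 1.30 without KO replicate 2, and without WT replicate 1 Ccl3 had 1.40 and Ccl5 1.39. For Ccl5 and Ccl4 the library numbered 2 was the higher one in both genotypes, the reverse of Ccl3 and Ccl9.

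Ccl9 had the widest ratio at the lowest counts. It was read 9 and 16 times in WT replicates 1 and 2 and 62 and 86 times in KO replicates 1 and 2. As CPM these were 0.335 and 0.251 in WT and 2.02 and 1.63 in KO, so each WT library was above its limit for a count of 0. The lowest KO library was 4.86 times the highest WT library. With the counts of a genotype pooled, 148 in KO against 25 in WT, the ratio per total count was 6.26 with an exact 95% interval of 4.08 to 9.98, which covers counting error only. The fitted log2 fold change was 2.65 ± 0.43.

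**Figure D1:**
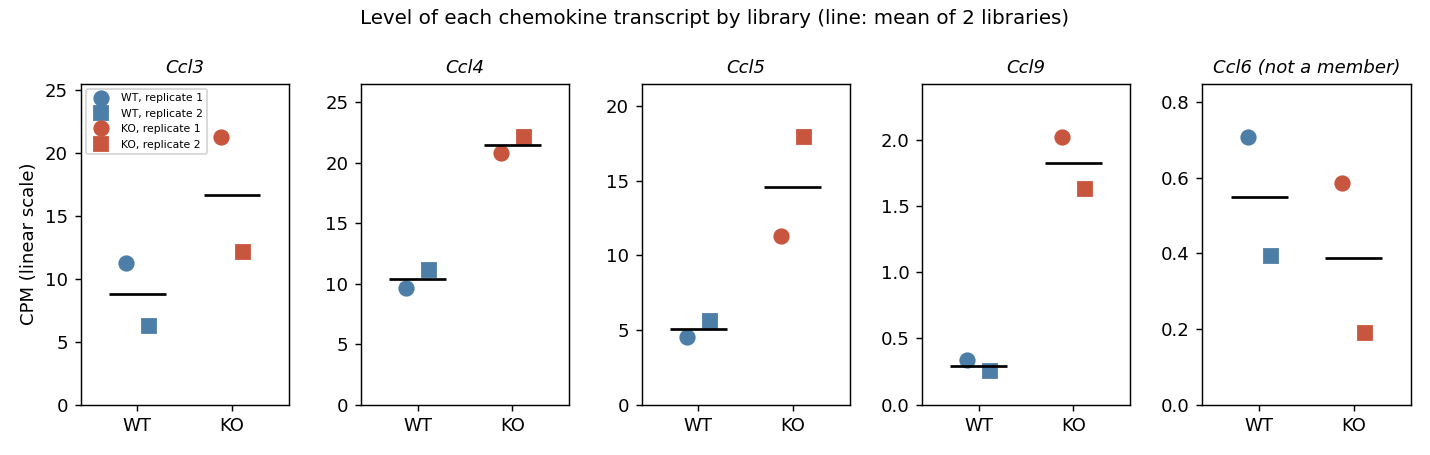
CPM (vertical axis, linear, its range set per panel) of Ccl3, Ccl4, Ccl5, Ccl9 and, for comparison, Ccl6 in the WT and KO libraries (horizontal axis). Circles are libraries numbered 1, squares those numbered 2, and lines are means of 2 libraries. Both KO libraries lie above both WT libraries for Ccl3 to Ccl9, narrowly for Ccl3 (12.1 against 11.2 CPM), and the groups overlap for Ccl6.

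All 4 genes passed the filter on low counts. The calls of this contrast were part of the choice, so they are printed once and nothing is read from them. At a Benjamini-Hochberg adjusted p under 0.05, the threshold for a call throughout, edgeR called 0 of the 4 and 0% of all genes tested, and DESeq2 called 3 (Ccl4, Ccl5 and Ccl9) where it called 0.167% of its 17996 genes higher. The authors' deposited table held 2 of the 4 (Ccl4 and Ccl5) under that threshold, where 0.162% of its rows were under it with a higher mean CPM in KO. Both KO libraries were above both WT libraries for all 4 genes and for 13.5% of the genes tested.

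Ccl6, a myeloid chemokine gene 9.25 kb from Ccl9, had a lower mean level in KO than in WT, at low counts. It was read 19 and 25 times in WT and 18 and 10 times in KO, or 0.707 and 0.393 CPM against 0.587 and 0.189 CPM. The groups overlapped, with the libraries numbered 1 higher in both genotypes. Its log2 fold change was -0.52 with a 95% interval of -2.37 to 1.34, so a difference of either direction was not detectable at this depth. That interval holds the values of Ccl3 (0.94) and Ccl4 (1.04). Reads of related genes such as Ccl6 and Ccl9 may be assigned between them in a way the sources used here do not give. A test of Ccl9 against Ccl6 was not made, since Ccl9 was chosen on its difference.

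Of the 10 table rows flanking the block, 5 on each side, 6 passed the filter, 3 of them higher and 3 lower in KO with a median log2 fold change of 0.27, against 0.0074 over all genes tested. None was called by edgeR or DESeq2. Taf15, an RNA-binding protein gene to the left, had -0.15 (95% interval -0.42 to 0.11), and Heatr6, to the right, had -0.02 (95% interval -0.28 to 0.23). Mmp28, a secreted metalloproteinase gene with 5 and 25 counts in WT and 22 and 49 in KO, had 1.44 ± 0.58, the one flanking gene with an unadjusted edgeR p under 0.05 (0.0493). The uncharacterised Gm11435, which lies 3.60 kb from Ccl5, had 0.56 with an interval of -0.63 to 1.76. To the left as well, 1700020L24Rik had 0.78 with an interval of -0.24 to 1.79. Mmp28, Gm11435 and 1700020L24Rik are the 3 higher flanking genes, all on the Ccl5 side and read 62 times or fewer in any library. For each, both KO libraries were above both WT libraries, as for 13.5% of all genes tested.

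**Figure D2:**
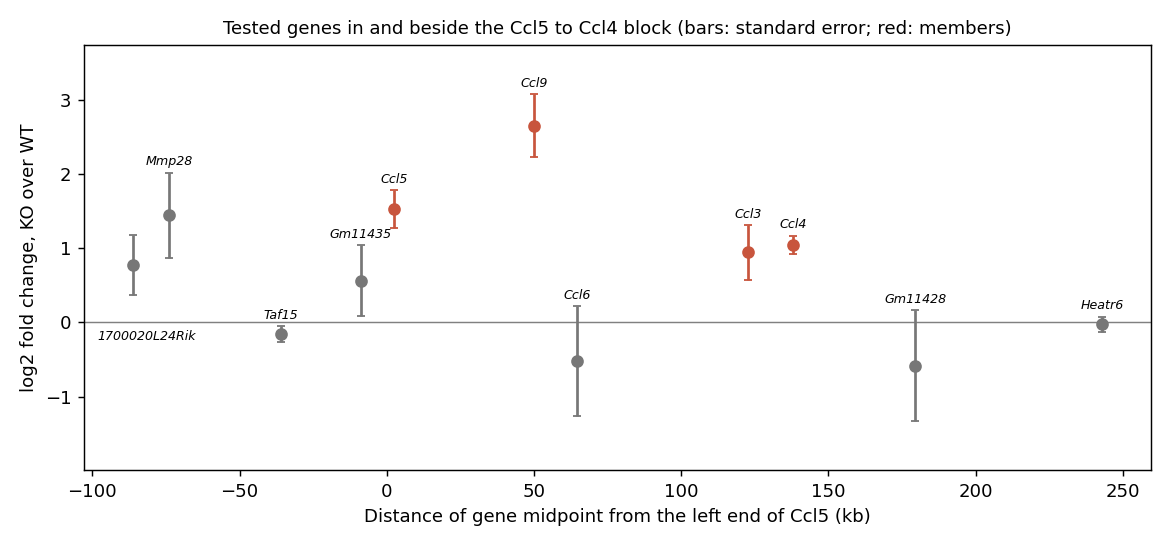
Log2 fold change of KO over WT (vertical axis, bars are standard errors) of the tested genes in and beside the block, by the distance of the gene's midpoint from the left end of Ccl5 in kb (horizontal axis). The 4 chosen chemokine genes (red) stand from 0.94 to 2.65, Ccl6 between them at -0.52, and the well-read flanking genes Taf15 and Heatr6 near 0. The low-count genes Mmp28, 1700020L24Rik and Gm11435, left of Ccl5, stand at 1.44, 0.78 and 0.56.

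A second group of CC chemokine genes, Ccl2, Ccl7, Ccl11, Ccl12, Ccl8 and Ccl1, ends 1346.0 kb to the left on the same chromosome. Each was read 78 times or fewer in any library. Ccl1, a chemokine of activated T cells that binds Ccr8, held 1.94 and 1.13 CPM in WT against 2.38 and 1.48 in KO. Its groups overlapped, and the log2 fold change was 0.34 (95% interval -0.76 to 1.44). The monocyte chemokine Ccl2 had -0.27 (95% interval -2.26 to 1.72), with both KO libraries inside the WT range of 0.220 to 0.782 CPM.

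Of 20 other CC ligands listed, 16 were found and 13 tested, 8 higher and 5 lower in KO, with a median log2 fold change of 0.22. None was called by edgeR, and 1, Ccl20, was called lower by DESeq2, which called 0.100% of its genes lower. Ccl20, the ligand of Ccr6, held 69.8 and 65.7 CPM in WT against 40.2 and 28.8 in KO, for a fitted log2 change of -0.98 ± 0.18 (DESeq2 adjusted p = 4.45e-04, edgeR adjusted p = 0.856). Leaving out WT replicate 1 ended the DESeq2 call (adjusted p = 0.140), as did leaving out KO replicate 2 (adjusted p = 0.631). Ccl21a, Ccl21b and Ccl21c, near-identical copies that guide cells by Ccr7, had 0.81, 0.76 and 0.96, none of them called. All are among the 8 higher ligands, and reads of such copies may be assigned between them, so they may not be separate readings. Ccl25, the small intestinal ligand of Ccr9, had -0.37 with an interval of -1.28 to 0.54, and Ccl27a, a ligand of Ccr10, had -0.30 with an interval of -1.36 to 0.77.

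Of the receptors of these chemokines reported here, 3 of 3 were higher in KO (median 0.64), where 52.0% of all genes tested were higher. Of these 3, 0 were called by edgeR and 1 by DESeq2, which called 0.167% of its genes higher. Ccr3, through which Ccl5 and eotaxins act, held 30.5 and 34.4 CPM in WT against 52.5 and 48.5 in KO. Both KO libraries were above both WT libraries. Its log2 fold change was 0.64 ± 0.11 (DESeq2 adjusted p = 0.0221, edgeR adjusted p = 0.856), and the DESeq2 call was lost without any 1 library, where the adjusted p was at least 0.499. Ccr1 held 148 and 139 CPM in WT against 180 and 135 in KO, with 0.14 and an interval of -0.24 to 0.52. Ccbp2, the older symbol of the scavenging receptor Ackr2, was read 9 and 7 times in WT and 18 and 48 times in KO, with 1.86 and an interval of 0.08 to 3.65, and was not called.

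**Figure D3:**
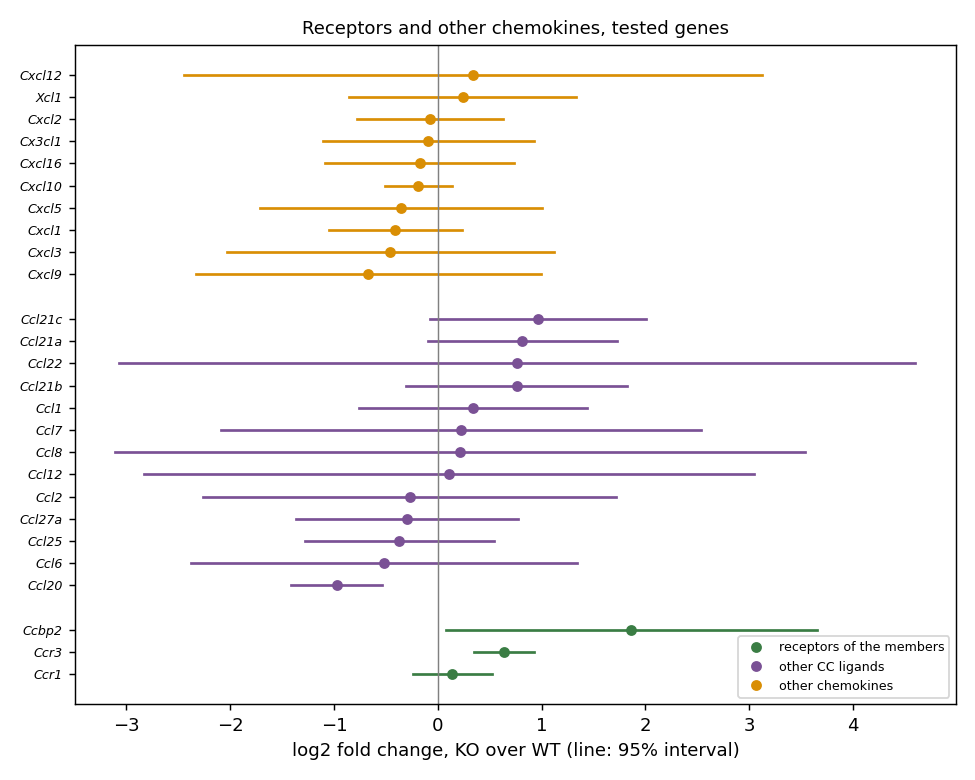
Log2 fold change of KO over WT (horizontal axis, lines are 95% intervals) of the tested receptors, other CC ligands and other chemokines (vertical axis, grouped by colour). Ccl20 at -0.98 and Ccr3 at 0.64 have intervals clear of 0, as has Ccbp2 more narrowly, and the other intervals cross it.

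Some transcription factors are known to act at these chemokine genes in T cells. The list read here was wider, and a role at these genes is not claimed for each of its members. Of 22 transcription factors and other transcriptional regulators listed, all were tested. There were 16 higher and 6 lower with a median log2 fold change of 0.05, where 52.0% of all genes tested were higher. None was called by edgeR and 1 by DESeq2, which called 0.167% of its genes higher. Tbx21, which encodes the Th1 factor T-bet, held 23.0 and 30.7 CPM in WT against 41.3 and 58.4 in KO, the libraries numbered 2 being the higher ones as for Ccl5. Its log2 fold change was 0.89 ± 0.22 (DESeq2 adjusted p = 0.0337, edgeR adjusted p = 1.00), and leaving out either WT replicate 1 or KO replicate 2 ended the DESeq2 call (adjusted p = 1.00 in both). Klf13, which drives late Ccl5 transcription in T cells, had 0.05 (95% interval -0.37 to 0.48). The NF-kappaB subunit genes Rela, Nfkb1 and Rel had 0.05, 0.07 and -0.08, and Irf1, an interferon-induced factor, had 0.42 with an interval of -0.26 to 1.10.

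Genes induced soon after antigen receptor stimulation, as Ccl3 and Ccl4 are, were spread around 0. Of 12 listed, 5 were higher and 7 lower, with a median of -0.02 and a range from -0.18 (Cd69) to 0.15 (Tnfrsf4), and none was called by edgeR or DESeq2. The early response factor Egr2 had -0.13 (95% interval -0.40 to 0.14), Nr4a1 had -0.14 (95% interval -0.47 to 0.19), and Nfkbid had -0.02 (95% interval -0.22 to 0.18).

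Other secreted products of effector T cells were mostly higher in KO, 11 of 13 with a median of 0.18, and 0 were called by edgeR and 2 higher by DESeq2. Over all genes tested, 52.0% were higher, and DESeq2 called 0.167% of its genes higher. Both KO libraries were above both WT libraries for 8 of the 13, against 13.5% of all genes tested. The 8 include differences as small as that of Il10 (0.02). The list was set with earlier results of these data known, so these counts are a description and no enrichment is read from them. Ifng, the gene of interferon gamma, held 25.8 and 36.4 CPM in WT against 47.0 and 73.7 in KO, for a fitted log2 change of 0.96 ± 0.26. Its DESeq2 adjusted p was 0.0497, and it became 1.00 when either WT replicate 1 or KO replicate 2 was left out. Il21 held 7.15 and 7.49 CPM in WT against 13.5 and 13.7 in KO, with 0.89 ± 0.12 (DESeq2 adjusted p = 0.0268, 1.00 whichever library was left out). The granzyme genes went apart: Gzma, at 7.97 and 4.07 CPM in WT against 1.73 and 2.23 in KO, had -1.58 ± 0.38 (DESeq2 adjusted p = 0.105), and Gzmb had 0.01 (95% interval -0.37 to 0.39). Tnf had 0.18 (95% interval -0.10 to 0.46), Csf2 had 0.69 (95% interval -0.02 to 1.40), and Xcl1, a chemokine of cytotoxic cells, had 0.24 (95% interval -0.85 to 1.33).

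**Figure D4:**
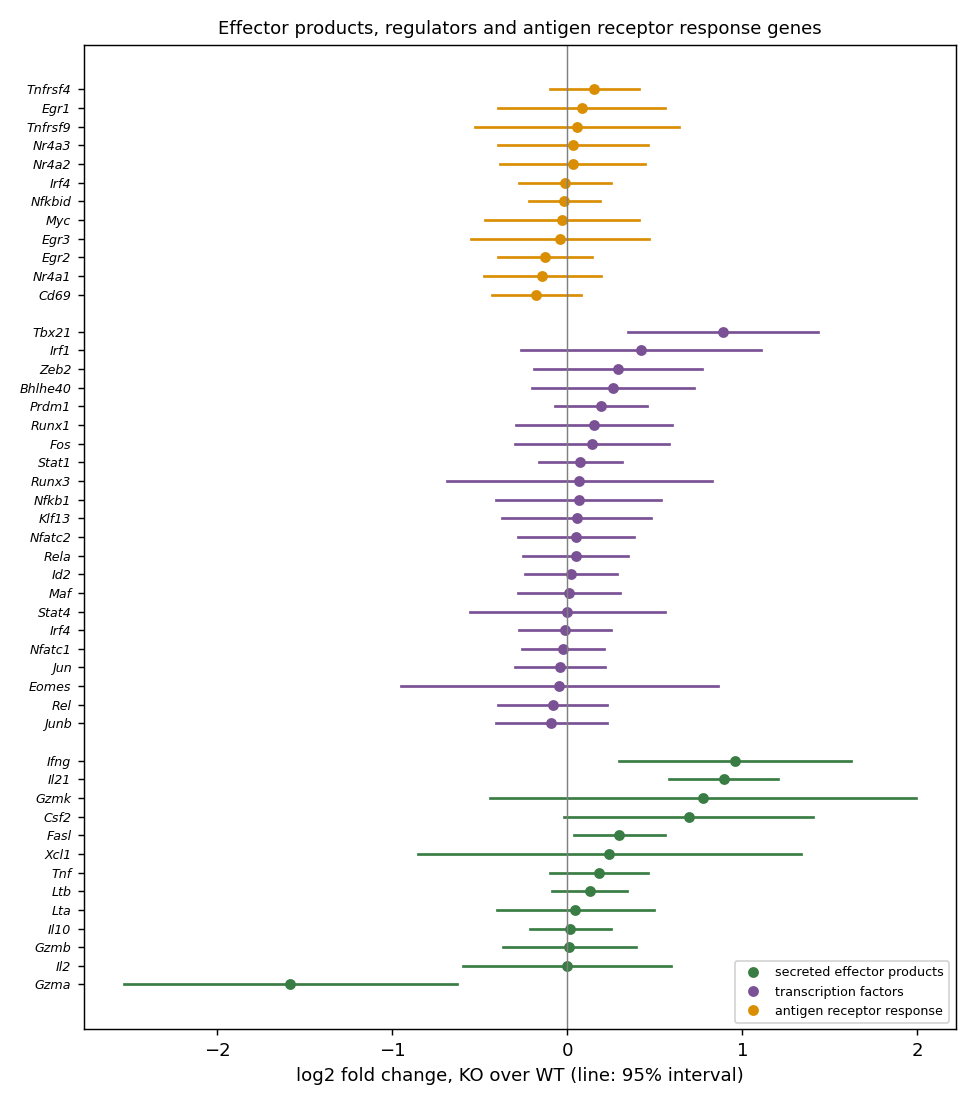
Log2 fold change of KO over WT (horizontal axis, lines are 95% intervals) of secreted effector products, transcription factors and antigen receptor response genes (vertical axis, grouped by colour). Ifng, Il21 and Tbx21 lie near 0.9, Gzma at -1.58, and the antigen receptor response genes between -0.18 and 0.15.

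Ccl3, Ccl4, Ccl5 and Ccl9 are also made by cells other than Treg cells, so marker lists of such cells were read in the same libraries. All 12 macrophage markers were tested, 2 higher and 10 lower in KO with a median log2 fold change of -0.58, and none was called by edgeR or DESeq2. The defining markers C1qa, Csf1r and Emr1 (the older symbol of Adgre1) had -0.78, -0.48 and -0.92. C1qa held 22.0 and 6.39 CPM in WT against 14.2 and 2.38 in KO, and the groups overlapped. The 7 dendritic markers summed to 45.8 and 36.6 CPM in WT against 46.9 and 45.5 in KO, with 3 of 5 tested genes higher. Most of each sum was Zbtb46, and Itgax was lower at -0.60 (95% interval -2.51 to 1.31). Of the defining dendritic markers, Zbtb46 held 27.3 and 26.8 CPM in WT against 30.3 and 36.0 in KO, with 0.29 (95% interval -0.01 to 0.60) and no overlap between the groups. Xcr1 had 0.13 (95% interval -0.47 to 0.72), and Clec9a was read at most 10 times in a library. The part of macrophages and dendritic cells in the chemokine levels was not tested.

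The 11 cytotoxic and NK markers summed to 1003 and 1096 CPM in WT against 926 and 1224 in KO, nearly all of it Gzmb, which Treg cells also express. Of 9 tested, 5 were higher and 4 lower. Nkg7, a granule membrane gene of cytotoxic cells, held 14.4 and 25.4 CPM in WT against 31.0 and 49.7 in KO, with 1.01 ± 0.33 (DESeq2 adjusted p = 0.208, 0.00459 in the authors' deposited table). Its groups did not overlap, and the libraries numbered 2 were the higher ones. Ncr1, a defining NK marker, was at 0 in WT and KO replicate 1 and was read 4 and 9 times in replicate 2, and the CD8 chain genes Cd8a and Cd8b1 had 0.43 and 0.22, neither called. The part of cytotoxic cells in the Ccl5 level was not tested.

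The 4 platelet markers summed to 4.79 to 5.59 CPM over the 4 libraries, the 5 neutrophil markers found to 0.769 to 1.23 CPM, and the 7 mast cell, basophil and eosinophil markers found to 0.223 to 1.27 CPM, with the defining Fcer1a at 0 in all. B cell markers summed to 12.2 to 18.7 CPM with 4 of 5 lower in KO, and the 2 plasma cell markers found to 131 to 349.5 CPM with 1 higher and 1 lower. Epithelial markers had 5 of 7 higher with a median of 1.03, among them Krt8, read 0 and 8 times in WT and 31 and 204 times in KO (DESeq2 adjusted p = 8.00e-04, a call kept only when the library left out was WT replicate 1). Krt19, a keratin gene like Krt8, was read 4 and 0 times in WT and 17 and 129 times in KO. Its DESeq2 adjusted p was 0.138, and that in the authors' deposited table was 4.46e-04. Cdh1, the E-cadherin gene, had 1.36 (95% interval -0.14 to 2.86). The keratin gene Krt18 went the other way, at 2.01 and 2.26 CPM in WT against 1.43 and 1.53 in KO. Its log2 fold change was -0.53 (95% interval -1.29 to 0.24), with both KO libraries below both WT libraries. Of the defining epithelial genes, Epcam had -0.17 (95% interval -0.47 to 0.13) and Vil1 had 0.35 (95% interval -0.43 to 1.13), with both KO libraries above both WT libraries for Vil1. The part of epithelial transcripts in the chemokine levels was not tested. Treg and T cell markers had 4 of 7 higher, with a median of 0.04.

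**Figure D5:**
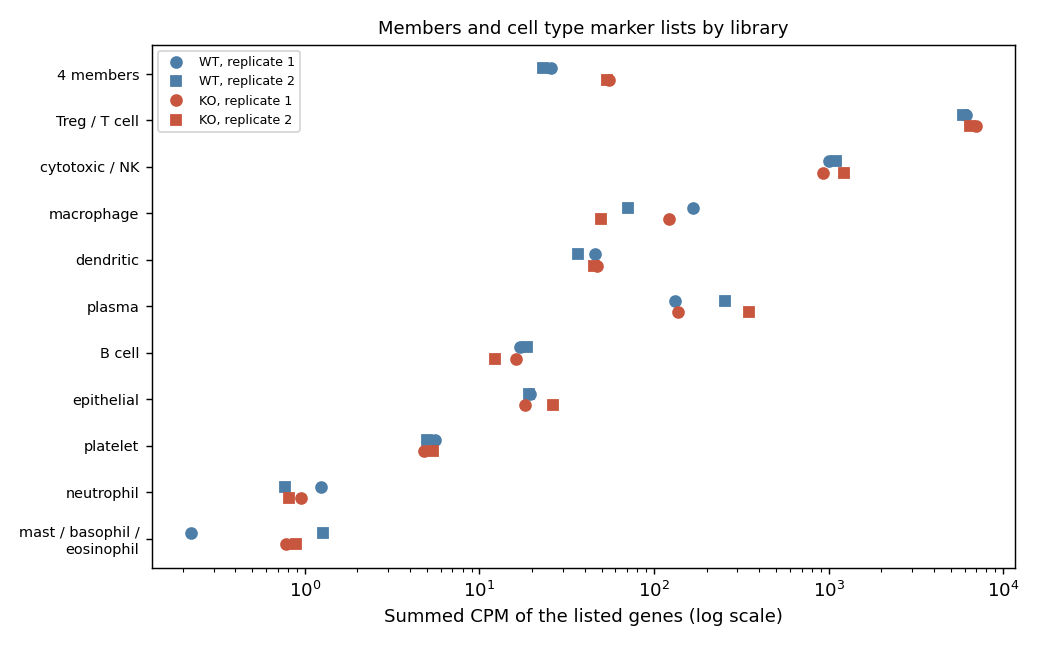
Summed CPM (horizontal axis, log scale) of the 4 chosen chemokine genes and of each cell type marker list (vertical axis), by library. Circles are libraries numbered 1 and squares those numbered 2. The chemokine sum separates KO (55.3 and 53.8 CPM) from WT (25.7 and 23.2 CPM), while the macrophage and plasma cell sums differ more between numbers than between genotypes.

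Genes whose pattern over the 4 libraries was most like that of each chemokine were named by the root-mean-square difference of log2 CPM centred on the gene's mean, among 11334 or 11335 tested genes whose average log2 CPM was 1 or more. This likeness rests on 4 libraries and carries no test. Nearest to Ccl4 were Il21 (0.094), the secreted binding protein gene Igfbp7 (0.111) and Csf1 (0.123), the growth factor gene of macrophages. Csf1 was read 1658 and 4905 times in WT and 3572 and 6706 times in KO. Nearest to Ccl3 were Epdr1 (0.104), 5830411N06Rik (0.165) and Gpr25 (0.174), each higher in the libraries numbered 1. Nearest to Ccl5 were Rasd2 (0.178), the steroid synthesis gene Cyp11a1 (0.179) and the protease inhibitor gene Serpina3f (0.223).

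For Ccl9 the nearest patterns lay farther off, Rasd2 at 0.496, Ccl5 at 0.640 and the peptide transporter gene Slc15a2 at 0.671. Among the 4 chemokine genes themselves, Ccl4 and Ccl5 were the nearest pair (0.304), followed by Ccl3 and Ccl4 (0.489), and Ccl3 and Ccl9 were the farthest (0.806).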

How the data were processed

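RNA-seq of 4 libraries, 2 WT and 2 KO, was used, and the 4 ATAC-seq samples of the series were not analysed here. Per the labels' protocols, sorted cells were lysed in Trizol, ribosomal RNA was removed, and 50 bp single-end reads were made. Gene counts, whole numbers without normalization, and 1 adjusted p-value per gene were taken from the authors' deposited table. Its comparison is not stated there and was read as KO against WT. TopHat2, DESeq and mm9 were used, per the submitters' processing notes. Neither the counting tool nor its strand setting is given in the sources used here. Columns were matched to samples by title.

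The fit was edgeR 4.0.16 in R 4.3.3 (quasi-likelihood F-test, genotype as the only term, filterByExpr by group, TMM scaling, Benjamini-Hochberg adjustment over all 14274 genes tested). CPM use library totals over tested genes times the TMM factor. Log2 CPM for patterns used a prior count of 2. DESeq2 1.42.0, limma 3.58.1 (voom), other scalings and filters, the replicate number as a block, and leaving out each library were alternatives. Exact intervals of pooled ratios used SciPy 1.17.1 and library totals over all genes. Scripts were tested on simulated data.

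The chosen genes and all lists were set with earlier results of these data known. The named genes were the 4 chemokine genes, other CC ligands of at least 1 CPM, the receptors, the rows in and beside the block, up to 4 genes of lowest p per list, defining markers, and the 3 nearest patterns per gene. One receptor gene is not reported here and is left out of the receptor counts. Not all others are reported, and some listed genes outside the rule were named after their values were seen, among them Ccl2, Ccl27a, Klf13, Rela, Nfkb1, Rel, Nfkbid and Xcl1.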

Additional observations from a re-analysis of the deposited data

How the results depend on the processing

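The 4 chemokine log2 fold changes kept their direction under every alternative that gave a value, and other scalings, filters and tools moved none of them by as much as the spread between replicates. With the stricter filter (at least 2 CPM in at least 2 libraries) Ccl9 was not tested. Ccl5 ranged from 1.15 to 1.81 when single libraries were left out. The edgeR count of 0 called genes (at an unadjusted p under 0.05, 234 were higher and 173 lower) became 52 with no filter and 48 with DESeq2, was 0 with limma-voom, and ran from 0 to 2 without single libraries. The DESeq2 count ran from 7 to 29 without single libraries. The causes were not tested. Leaving a library out leaves its genotype with 1, assumed to vary like the others. With the replicate number as a block (replicate block), which leaves 1 residual degree of freedom, 458 of the 14274 genes tested were called. Of 119 tested genes on the lists, 11 were called higher and 7 lower. The lists were set with earlier results of these data known, so these counts are a description and no enrichment is read from them. The 7 were Ccl20, Gzma and the macrophage markers C1qa, C1qb, C1qc, Csf1r and Emr1, each lower in KO within both numbers. Their adjusted p in this edgeR fit ran from 4.42e-10 (Ccl20) to 0.00710 (C1qc). The 11 were Ccr3, Tbx21, Irf1, Zeb2, Ifng, Il21, Nkg7, Ctla4, Igj, Krt8 and Krt19, each higher within both numbers. Their adjusted p ran from 4.42e-10 (Ifng) to 0.0389 (Ctla4). Nothing in the labels says that a number marks a shared animal or day, and deviations of same-numbered libraries correlated at 0.641 across genes. KO over WT within a number was 1.89 and 1.93 for Ccl3, 2.15 and 1.99 for Ccl4, 2.50 and 3.21 for Ccl5, and 6.03 and 6.47 for Ccl9. Depth limits Ccl9, Ccl6 and the other low chemokine genes.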

Other observations

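Of 17 chemokine genes of the CXC and other families listed, 15 were found and 10 tested, 2 higher and 8 lower in KO with a median log2 fold change of -0.18, and none was called by edgeR or DESeq2. Cxcl10, an interferon-induced ligand of Cxcr3, held 125 and 103 CPM in WT against 94.2 and 106 in KO, with -0.19 (95% interval -0.51 to 0.14). The neutrophil attractants Cxcl1 and Cxcl2 had -0.41 (95% interval -1.05 to 0.23) and -0.08 (95% interval -0.78 to 0.63). Cxcl16, the ligand of Cxcr6, held 24.5 and 12.8 CPM in WT against 20.2 and 12.7 in KO, higher in the libraries numbered 1 of both genotypes as Ccl3 was.

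The AP-1 gene Junb stood at 0.0116 among the adjusted p-values of the authors' deposited table. Its log2 fold change here was -0.09 (95% interval -0.41 to 0.23), and edgeR and DESeq2 gave it an adjusted p of 1.00. Of the listed genes that DESeq2 called here, the deposited table held Ccl20 at 2.49e-05, Krt8 at 5.35e-05, Tbx21 at 0.0135 and Ifng at 0.0364. It held Il21 at 0.181 and Ccr3 at 0.538, above the threshold for a call.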
